A study of Mus musculus with 46 samples.

Results

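Immune checkpoint receptors and ligands are described here through 5 genes across the 46 mouse RNA-seq libraries of the study. They are *Pdcd1* (PD-1), *Cd274* (PD-L1), *Pdcd1lg2* (PD-L2), *Havcr2* (TIM-3) and *Lag3* (LAG-3), of 21231 genes listed in at least 1 of the 3 tables. They were taken by symbol, and *Pdcd1* was chosen by its FPKM values, higher in repopulated cells than in control, so that difference is given as a description with no test. Of the 5 genes, 3 are listed in the table of the subventricular zone (SVZ), all 5 in that of sorted cells after LPS and 4 in the GLOBAL table. The expression filter left 3, 4 and 4 of them for tests.

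All mice were C57BL/6. PLX3397 blocks CSF1R, a receptor that microglia need to stay alive. The SVZ tissue came from control mice, from mice given PLX3397 for 14 days and from mice given it for 14 days and then returned to control diet for 5 days (n = 5 each). Sorted CD11b+CD45int myeloid cells of whole hemispheres came from control mice (0 hr n = 3, 6 hr n = 5, 24 hr n = 4) and from mice after 14 days of PLX3397 and 28 days of recovery (n = 4 at each time), in which cells spread from the white matter (WM repopulating cells). These mice received no LPS (0 hr) or 0.33 mg/kg LPS, a bacterial endotoxin, 6 or 24 hr before collection. The GLOBAL experiment held sorted cells from 4 control mice and from 3 mice after 7 days of PLX3397 and 28 days of recovery, in which microglia that survived the drug refill the brain. The mice of the sorted-cell experiments were described as 2 months old, and the gate does not separate microglia from other myeloid cells of the same surface levels.

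PD-1, TIM-3 and LAG-3 are inhibitory receptors best known from T cells, where they dampen activation. PD-L1 and PD-L2 are the ligands of PD-1, and PD-L1 is a classical interferon-induced gene. TIM-3 binds galectin-9, among other ligands, and is also made by myeloid cells including microglia, while LAG-3 binds MHC class II.

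The libraries held 7.64 M to 15.2 M reads in the SVZ table, 4.24 M to 9.25 M in the LPS table and 1.83 M to 4.83 M in the GLOBAL table, as recovered from the steps of the FPKM values (reads scaled by gene length and library size). Of the SVZ values, 73.2% were even multiples of the smallest step, so a fragment may count there as 2 reads. The 8 microglia markers (*P2ry12*, *Tmem119* and others) summed to 17893 to 21376 FPKM in WM repopulating cells at 0 hr and 18192 to 21082 FPKM in control microglia. Neutrophil markers (*S100a8* and others, 5 of 5 listed) varied widely between sorted libraries, from 406 to 14544 FPKM in summed level in the LPS table. Replicate 2 of control microglia at 6 hr and replicate 4 at 24 hr stood furthest from their groups, with a mean Pearson's r to the other libraries of their group of 0.938 and 0.947 across genes, against a median of 0.971.

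*Cd274* and *Pdcd1lg2* lie next to each other on chromosome 19 (GRCm38, 29367455 to 29388095 and 29410919 to 29471161, plus strand). *Pdcd1* is on chromosome 1 (94038305 to 94052553, minus strand), *Havcr2* on chromosome 11 (46454935 to 46481255, plus strand) and *Lag3* on chromosome 6 (124904361 to 124911705, minus strand). Of the 3622 exonic bases of *Cd274*, 511 overlap an antisense transcript, and since the counting is not stated to use strand, reads of both cannot be told apart there. The 250 bases before the RefSeq start (GRCm38.p6) are shown for the gene picked for repopulation and for the gene with the largest response to LPS. Capitals mark the letters GAAAC (the core that interferon regulatory factors bind) and GAGGAA (a PU.1-type site) on either strand. *Pdcd1* is on the minus strand of chr1:94052554-94052803 and *Cd274* on the plus strand of chr19:29367188-29367437.
Pdcd1: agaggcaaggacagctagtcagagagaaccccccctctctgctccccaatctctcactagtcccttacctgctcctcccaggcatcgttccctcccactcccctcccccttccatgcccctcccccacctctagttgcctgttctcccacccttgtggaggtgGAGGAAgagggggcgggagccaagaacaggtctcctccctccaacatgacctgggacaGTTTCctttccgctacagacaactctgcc
Cd274: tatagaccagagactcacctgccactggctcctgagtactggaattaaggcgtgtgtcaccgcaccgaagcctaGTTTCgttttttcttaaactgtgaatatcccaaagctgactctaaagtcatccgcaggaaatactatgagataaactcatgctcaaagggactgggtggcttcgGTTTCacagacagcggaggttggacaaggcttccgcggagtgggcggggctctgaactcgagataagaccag
The *Cd274* stretch held GAAAC at 2 places and the *Pdcd1* stretch at 1, and 39.7% of 32817 promoters of this length hold it. GAGGAA was in the *Pdcd1* stretch and not in that of *Cd274*, and 23.3% of promoters hold it. Neither stretch held GAAA, then 2 bases of any kind, then GAAA (the ISRE, in 2.97% of promoters), TTCNNNGAA (7.01%) or TGANTCA (an AP-1 site, 6.75%), and GAAAC overlaps the ISRE letters. A match is only a match of letters.

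*Pdcd1* was higher in WM repopulating cells than in control microglia at each time. At 0 hr it was at 30.6, 24.7, 24.6 and 35.0 FPKM in the 4 libraries of WM repopulating cells and at 9.02, 3.08 and 5.004 FPKM in the 3 control libraries. No library of one origin reached the range of the other, and the means were 28.7 ± 5.07 and 5.70 ± 3.03 FPKM (SD), a ratio of 5.04. Of all genes tested, 13.6% had groups that did not overlap at 0 hr. The gene was chosen for its rise in repopulated cells. Nothing is therefore read from this contrast or from those between origins at 6 and 24 hr. At 6 hr the values were 8.77, 28.0, 10.4 and 15.7 FPKM in WM repopulating cells and 1.19 to 6.57 FPKM (median 3.56) in control microglia, again without overlap, where 3.78% of all genes tested had groups apart. At 24 hr the groups overlapped: 28.0, 6.58, 26.2 and 17.3 FPKM in WM repopulating cells against 9.88, 6.98, 8.35 and 1.61 FPKM in control microglia. The ratios of the means were 4.26 at 6 hr and 2.91 at 24 hr. Between 41 and 117 reads lay behind the control values at 0 hr and 301 to 527 behind those of WM repopulating cells.

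**Figure D1:**
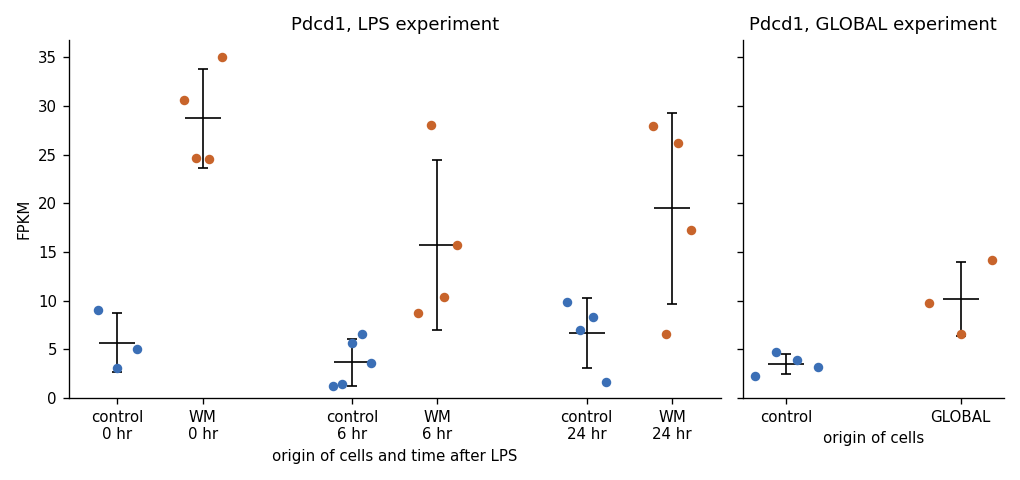
*Pdcd1* level in FPKM (y axis) by origin of the cells and time after LPS (left) and in the GLOBAL experiment (right); points are libraries (blue, control; orange, repopulated), and black bars give the mean ± SD. WM repopulating cells at 0 hr sit between 24.6 and 35.0 FPKM, above all control libraries, and the 3 GLOBAL repopulated libraries sit between 6.56 and 14.2 FPKM.

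In the GLOBAL experiment *Pdcd1* was at 9.75, 6.56 and 14.2 FPKM in the repopulated libraries and at 2.29, 4.70, 3.94 and 3.20 FPKM in control. The groups did not overlap, and the means were 10.2 ± 3.84 and 3.53 ± 1.03 FPKM, a ratio of 2.88. Of all genes tested, 9.96% had groups without overlap. This contrast entered the choice of the gene too, so nothing is read from it. Only 15 to 30 reads lay behind each control value. The LPS and GLOBAL tables were normalized separately, so their levels are not compared.

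PD-1 is a receptor of T cells, and T-cell markers moved with *Pdcd1* at 0 hr. The 10 T-cell markers, all of them listed and none at 0 in every library of a group, summed to 36.1 to 64.3 FPKM in WM repopulating cells and 23.4 to 27.6 FPKM in control microglia. *Cd3d*, a subunit of the T-cell receptor complex, was at 5.89 FPKM on average against 1.19 FPKM (log2 fold change 1.74, adjusted p = 0.0174). At 6 hr, where *Pdcd1* did not overlap between the origins, the summed level was 14.6 to 26.1 FPKM in WM repopulating cells and 10.3 to 14.8 FPKM in control microglia. At 24 hr it was 10.8 to 19.6 FPKM in WM repopulating cells and 9.42 to 17.1 FPKM in control microglia, while *Pdcd1* was at 19.5 ± 9.79 and 6.71 ± 3.60 FPKM. In the GLOBAL table it was 22.9 to 24.1 FPKM in repopulated and 17.1 to 19.8 FPKM in control libraries. The part of these cells in the *Pdcd1* level was not tested.

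After LPS the *Pdcd1* values within an origin are given as a description too, since the libraries at 0 hr had entered its choice. In WM repopulating cells its log2 fold change against 0 hr was -0.95 (SE 0.47) at 6 hr and -0.70 (SE 0.47) at 24 hr. In control microglia it was -0.59 (SE 0.49) and 0.12 (SE 0.51). All fold changes and adjusted p are from limma on log2(FPKM + 1), a scale on which the change of genes with low FPKM is understated, with a threshold of an adjusted p of 0.05.

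By mean level, *Pdcd1* was ordered WM repopulating cells at 0, 24 and 6 hr, then control microglia at 24, 0 and 6 hr. The libraries of each neighbouring pair in this order overlapped. Among the tested genes with a pattern most like *Pdcd1* over the 24 libraries were *Carmil1* (Pearson's r 0.87), *Derl1* (0.81), *Htra3* (0.81) and *Axl* (0.80). *Axl*, a receptor tyrosine kinase that takes part in the uptake of dying cells, was at 30.6 FPKM on average in WM repopulating cells and 5.35 FPKM in control microglia at 0 hr. These correlations describe libraries that share groups and times.

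The ligand *Cd274* rose at 6 hr after LPS in both origins. In control microglia it was at 5.23, 4.87 and 5.61 FPKM at 0 hr and at 31.5, 112.2, 15.6, 29.5 and 28.2 FPKM at 6 hr. Every 6 hr library lay above every 0 hr library, replicate 2 far above the others, and the log2 fold change was 2.499 (SE 0.41, adjusted p = 2.61e-05). The ratio of the means was 8.28 with that library and 4.998 without it, and the 6 hr mean was 43.4 and 26.2 FPKM. In WM repopulating cells *Cd274* went from 8.83, 9.48, 6.07 and 7.72 FPKM at 0 hr to 42.9, 46.8, 30.1 and 21.2 FPKM at 6 hr, without overlap (log2 fold change 1.96, SE 0.39, adjusted p = 0.000339). Of all genes tested, 42.5% passed the threshold at 6 hr in control microglia and 38.8% in WM repopulating cells, and 38.1% and 39.9% had groups that did not overlap. Of *Cd274*, *Havcr2* and *Lag3*, 1 did so in control microglia and 2 in WM repopulating cells. Markers of cell types moved at the same time. The 5 monocyte markers were all listed, none at 0 in every library of a group. They went from 103–334 to 1176–2369 FPKM in control microglia and from 125–397 to 1191–3306 FPKM in WM repopulating cells, as sums. NK-cell markers rose from 10.8–38.3 to 54.7–221 FPKM and from 32.6–47.8 to 79.1–214 FPKM. Microglia markers fell from 18192–21082 to 5080–6963 FPKM and from 17893–21376 to 6323–7592 FPKM. T-cell and B-cell markers fell as well. The part of these cells in the *Cd274* level was not tested.

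**Figure D2:**
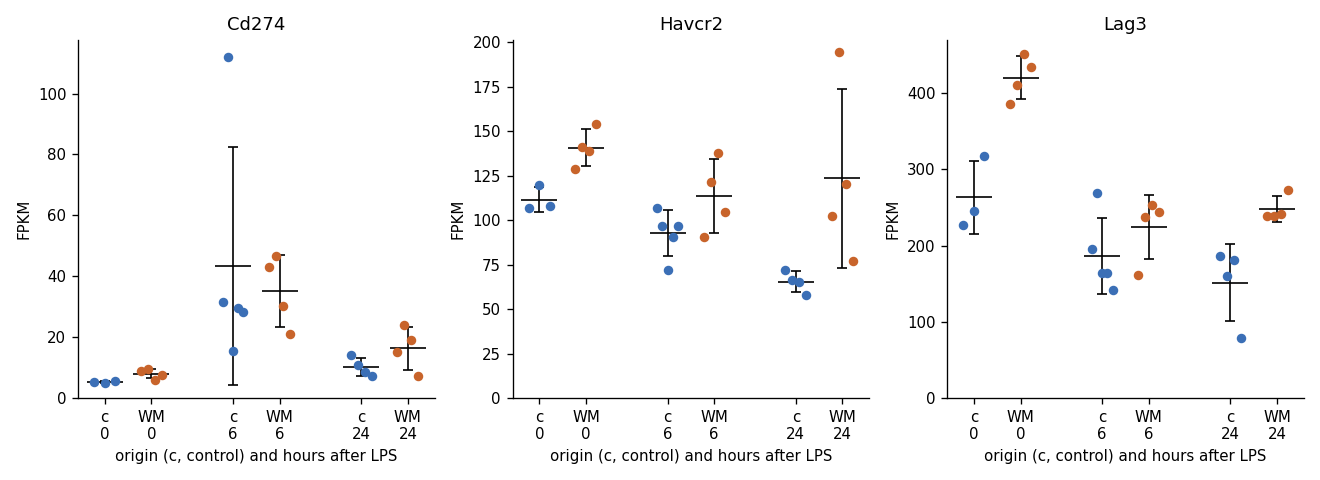
*Cd274*, *Havcr2* and *Lag3* levels in FPKM (y axes, each from 0) by origin (c, control, blue; WM, WM repopulating cells, orange) and hours after LPS; points are libraries and black bars give the mean ± SD. *Cd274* is highest at 6 hr in both origins, with 1 control library at 112.2 FPKM, and *Lag3* is highest in WM repopulating cells at 0 hr.

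At 24 hr *Cd274* was at 14.1, 10.7, 8.57 and 7.29 FPKM in control microglia and at 15.01, 24.1, 19.2 and 7.40 FPKM in WM repopulating cells. The drop from 6 to 24 hr passed the threshold in control microglia (log2 fold change -1.69, SE 0.37, adjusted p = 0.00139), where 2 checkpoint genes, *Cd274* and *Havcr2*, and 28.3% of all genes passed. It did not in WM repopulating cells (-1.10, SE 0.39, adjusted p = 0.0586), where 0 of *Cd274*, *Havcr2* and *Lag3* (1 at an unadjusted p under 0.05) and 15.7% of all genes did in limma, and it did with the replicate number as a block (adjusted p = 0.0269). Against 0 hr, the 24 hr values gave log2 fold changes of 0.80 (SE 0.42, adjusted p = 0.188) in control microglia and 0.85 (SE 0.39, adjusted p = 0.137) in WM repopulating cells. With only the groups compared in the fit, these had adjusted p of 0.0370 and 0.0461.

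Between origins no difference in *Cd274* passed the threshold. At 0 hr the libraries of WM repopulating cells were all above those of control microglia, with means of 8.03 ± 1.49 and 5.24 ± 0.370 FPKM. Of all genes tested, 13.6% had groups that did not overlap there. On the log2 scale the origins differed by 0.52 in *Cd274* (SE 0.42, adjusted p = 0.679). The difference was -0.02 (SE 0.37, adjusted p = 0.993) at 6 hr and 0.57 (SE 0.39, adjusted p = 0.487) at 24 hr on the log2 scale. The response to LPS itself differed by -0.54 (SE 0.57, adjusted p = 0.854) at 6 hr and 0.05 (SE 0.58, adjusted p = 0.990) at 24 hr, WM repopulating cells minus control, where 0.0237% and 0.0867% of all genes passed the threshold. The genes with the pattern most like *Cd274* over the 24 libraries were *Rbms1* (r 0.97), *Clic4* (0.96), *Piwil2* (0.95), *Fth1* (0.94) and *Mmp14* (0.94). *Mmp14*, a membrane-bound metalloproteinase, was at 26.9 ± 4.72 FPKM at 0 hr and 191 ± 174 FPKM at 6 hr in control microglia (mean ± SD). The r values include replicate 2 of control microglia at 6 hr, where *Cd274* was at 112.2 FPKM.

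The other ligand of PD-1, *Pdcd1lg2*, was near the lowest level that can be seen. It was between 0 and 0.559 FPKM in the 24 libraries, from 0 to 16 reads each, and it did not pass the expression filter. In WM repopulating cells at 0 hr it was at 0 in 3 libraries and at 0.371 FPKM (8 reads) in replicate 2. At 6 hr all 4 libraries had reads, from 0.226 to 0.472 FPKM. With no filter the 6 hr change in WM repopulating cells had a log2 fold change of 0.32 (SE 0.15) and an adjusted p of 0.104.

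Among partners of PD-1 and its ligands, *Cmtm6*, which keeps PD-L1 at the cell surface, fell from 366 to 136 FPKM at 6 hr in control microglia (log2 fold change -1.42, adjusted p = 1.07e-05) and from 377 to 151 FPKM in WM repopulating cells (-1.33, adjusted p = 2.21e-05). Of the 6 genes of this list, 1 rose and 2 fell in control microglia and 0 rose and 3 fell in WM repopulating cells, near the 42.5% and 38.8% of all genes that passed. *Ptpn6*, the phosphatase SHP-1, was the other gene that fell in both. Of 8 other B7 family members and checkpoint ligands tested, 4 rose at 6 hr in control microglia and 2 in WM repopulating cells, and 0 fell, beside the same shares of all genes. *Cd86*, a costimulatory ligand, went from 177 to 376 FPKM in control microglia (1.04, adjusted p = 0.000572) and from 201 to 374 FPKM in WM repopulating cells (0.85, adjusted p = 0.00314).

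*Havcr2* was among the more abundant genes of the sorted cells, and it fell in control microglia at 24 hr after LPS. It was at 106.7, 119.6 and 108.3 FPKM at 0 hr and at 72.0, 66.4, 65.5 and 57.7 FPKM at 24 hr in control microglia. No library overlapped, and the log2 fold change was -0.76 (SE 0.20, adjusted p = 0.00900). *Lag3* fell too, so 2 checkpoint genes passed the threshold, where 21.3% of all genes did and 29.5% had groups that did not overlap. From 0 to 24 hr in control microglia, summed microglia markers went from 18192–21082 to 9456–11953 FPKM. Those of B cells went from 46.6–56.7 to 26.8–35.5 FPKM and those of dendritic cells from 17.6–43.2 to 3.43–5.74 FPKM. T-cell markers went from 23.4–27.6 to 9.42–17.1 FPKM. Markers of monocytes rose from 103–334 to 432–551 FPKM and those of NK cells from 10.8–38.3 to 39.2–83.0 FPKM. The part of these cells in the *Havcr2* fall was not tested. Among WM repopulating cells *Havcr2* was at 129.1, 141.0, 139.0 and 154.3 FPKM at 0 hr and at 102.4, 194.4, 120.3 and 77.0 FPKM at 24 hr (-0.27, SE 0.19, adjusted p = 0.352). Without replicate 2 at 24 hr, the library at 194.4 FPKM, the change was -0.51 (SE 0.16) and passed the threshold (adjusted p = 0.0278). The response at 24 hr differed between the origins by 0.50 (SE 0.28, adjusted p = 0.638), and at 6 hr by -0.05 (SE 0.27, adjusted p = 0.979). Without single libraries the difference at 24 hr ran from 0.25 to 0.69. The change from 6 to 24 hr in control microglia was -0.49 (SE 0.18, adjusted p = 0.0444), and it was past the threshold no longer with the replicate number as a block (adjusted p = 0.0685) or without any of 10 single libraries.

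**Figure D3:**
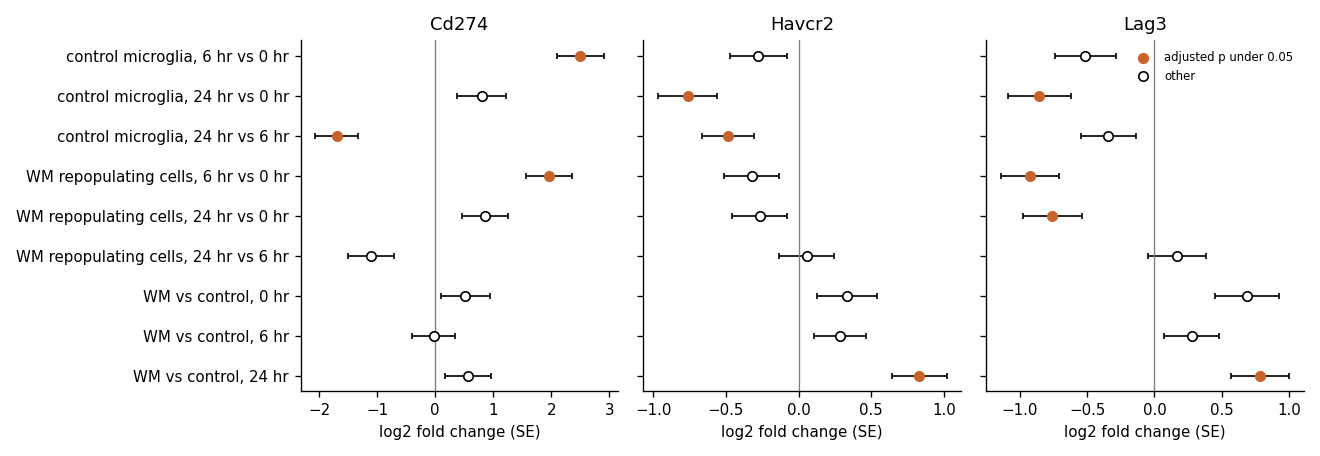
Log2 fold changes on the log2(FPKM + 1) scale (x axes, ± SE) of *Cd274*, *Havcr2* and *Lag3* in each comparison of the LPS experiment (y axis); filled orange points have a limma adjusted p under 0.05. *Cd274* lies at 2.499 and 1.96 at 6 hr against 0 hr, and *Lag3* and *Havcr2* lie above 0 in WM repopulating cells against control at 24 hr.

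At 24 hr *Havcr2* was higher in WM repopulating cells than in control microglia (means 123.5 ± 50.5 and 65.4 ± 5.89 FPKM). The log2 difference was 0.83, with an SE of 0.19 and an adjusted p of 0.0131, and every library of WM repopulating cells was above every control library. *Lag3* was higher as well, and of the 3 checkpoint genes tested 2 passed the threshold, where 3.97% of all genes did and 12.1% had groups that did not overlap. Without replicate 2 of WM repopulating cells at 24 hr, the library at 194.4 FPKM, the *Havcr2* difference was 0.58 with an adjusted p of 0.0512, and with only the groups compared in the fit it was 0.0989. At 0 hr and 6 hr the differences were 0.33 (SE 0.20, adjusted p = 0.558) and 0.29 (SE 0.18, adjusted p = 0.676), and 0.323% of all genes passed the threshold at 6 hr. By mean level the order was WM repopulating cells at 0, 24 and 6 hr, then control microglia at 0, 6 and 24 hr, and each neighbouring pair overlapped. The genes most like *Havcr2* were *Glcci1* (r 0.85), *Cd33* (0.83), *St14* (0.83), *Nub1* (0.82) and *Il6ra* (0.82), over 24 libraries. Markers of other cells also differed at 24 hr, without overlap. Neutrophil markers summed to 2737 to 5404 FPKM in WM repopulating cells and 5614 to 14544 FPKM in control microglia, those of border-associated macrophages to 13.02 to 27.3 and 36.3 to 55.4 FPKM, and those of B cells to 6.38 to 9.01 and 26.8 to 35.5 FPKM. Of these lists 5 of 5, 5 of 5 and 3 of 4 genes are listed, none at 0 in every library of a group, and their part in the *Havcr2* and *Lag3* differences was not tested.

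Among the ligands of TIM-3, *Lgals9* (galectin-9) rose at 6 hr from 230 to 386 FPKM in control microglia (log2 fold change 0.71, adjusted p = 0.00573) and from 224 to 442 FPKM in WM repopulating cells (0.96, adjusted p = 0.000319). *Ceacam1*, a further ligand, fell from 28.9 to 15.6 FPKM (-0.84, adjusted p = 0.00827) and from 35.1 to 16.1 FPKM (-1.14, adjusted p = 0.000520). Of the 4 genes of this list tested, 1 rose in each origin, and 2 fell in control microglia and 1 in WM repopulating cells, beside 42.5% and 38.8% of all genes.

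*Lag3* had the highest level of the 5 genes in the sorted cells and fell after LPS. In WM repopulating cells it was at 385.6, 411.0, 450.9 and 434.2 FPKM at 0 hr, at 162.0, 236.9, 253.2 and 243.6 FPKM at 6 hr and at 239.3, 238.7, 241.4 and 273.5 FPKM at 24 hr. All 6 and 24 hr libraries lay below all 0 hr libraries, with log2 fold changes of -0.92 (SE 0.22, adjusted p = 0.00161) and -0.76 (SE 0.22, adjusted p = 0.0165). At 6 hr 38.8% of all genes passed the threshold in these cells and 39.9% had groups apart. At 24 hr *Lag3* was the 1 checkpoint gene past the threshold, where 18.8% of all genes passed and 25.1% had groups apart. In control microglia *Lag3* was at 226.7, 245.6 and 317.1 FPKM at 0 hr, at 141.6 to 268.5 FPKM at 6 hr (median 164.4) and at 186.2, 159.9, 181.4 and 78.3 FPKM at 24 hr. The change was -0.51 (SE 0.23, adjusted p = 0.0698) at 6 hr, where the groups overlapped. It passed with quantile normalization (adjusted p = 0.0411) and without replicate 2 of control microglia at 6 hr (-0.65, adjusted p = 0.0183). Without replicate 4 of control microglia at 24 hr it passed too (adjusted p = 0.0154). At 24 hr the change was -0.86 (SE 0.24, adjusted p = 0.0111), without overlap, as in 29.5% of all genes tested. The 24 hr call was lost without replicate 3 of control microglia at 0 hr (adjusted p = 0.0728) and with only the groups compared (adjusted p = 0.0692). The responses of the origins differed by -0.41 (SE 0.31, adjusted p = 0.807) at 6 hr and 0.10 (SE 0.32, adjusted p = 0.965) at 24 hr. Microglia markers fell as well, 8 of 8 at 6 hr in each origin (median log2 fold changes -1.87 and -1.59). At 24 hr 7 of 8 fell in control microglia and 8 of 8 in WM repopulating cells. Of all genes, 42.5% and 38.8% passed the threshold at 6 hr and 21.3% and 18.8% at 24 hr. The sums of the microglia markers at 6 hr were 5080 to 6963 FPKM in control microglia and 6323 to 7592 FPKM in WM repopulating cells. At 24 hr they were 9456 to 11953 and 8688 to 12722 FPKM. T-cell markers summed to 36.1–64.3, 14.6–26.1 and 10.8–19.6 FPKM at 0, 6 and 24 hr in WM repopulating cells. In control microglia these sums were 23.4–27.6, 10.3–14.8 and 9.42–17.1 FPKM. NK-cell markers rose at 6 hr, from 32.6–47.8 to 79.1–214 FPKM in WM repopulating cells and from 10.8–38.3 to 54.7–221 FPKM in control microglia. The part of what moved these markers in the *Lag3* values was not tested.

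WM repopulating cells had more *Lag3* than control microglia in every library at 0 hr, with means of 420.4 ± 28.4 and 263.1 ± 47.7 FPKM, a separation that 13.6% of all genes showed. The log2 fold change was 0.69 (SE 0.24, adjusted p = 0.183), where 1.21% of all genes passed, with an adjusted p of 0.0179 when only the groups compared were fitted and 0.0407 without replicate 4 of control microglia at 24 hr. Beside it at 0 hr, T-cell markers summed to 36.1 to 64.3 FPKM in WM repopulating cells and 23.4 to 27.6 FPKM in control microglia, and B-cell markers (3 of 4 listed) to 9.66 to 19.5 and 46.6 to 56.7 FPKM, both without overlap, and their part in the *Lag3* difference was not tested. At 24 hr the difference was 0.78 (SE 0.22, adjusted p = 0.0424), again without overlap. It was 0.50 with an adjusted p of 0.138 without that replicate 4, the control library at 78.3 FPKM, and it was lost without any of 11 single libraries, with only the groups compared (adjusted p = 0.126), with no filter (0.0525) and with no variance trend (0.0554). At 6 hr it was 0.28 (SE 0.21, adjusted p = 0.750). By mean level WM repopulating cells at 0 hr came first, and this group alone did not overlap with its neighbour, control microglia at 0 hr. The genes most like *Lag3* were *Junb* (r 0.92), *H2-Oa* (0.92), *Ctsd* (0.92), *Pip5k1c* (0.92) and *Tfe3* (0.91), over 24 libraries.

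MHC class II genes, which encode the ligands of LAG-3, fell after LPS in both origins. *H2-Eb1* went from 255 to 46.7 FPKM at 6 hr in control microglia (log2 fold change -2.50, adjusted p = 2.21e-07) and from 193 to 44.4 FPKM in WM repopulating cells (-2.08, adjusted p = 2.39e-06). *Lgals3* (galectin-3), a further ligand, rose from 47.0 to 244 FPKM (2.37, adjusted p = 2.10e-05) and from 69.2 to 251 FPKM (1.87, adjusted p = 0.000263). Of the 8 genes of this list tested, 1 rose and 4 fell at 6 hr in each origin, beside 42.5% and 38.8% of all genes that passed. Dendritic-cell markers, of cells rich in MHC class II, summed to 17.6 to 43.2 FPKM at 0 hr and 2.74 to 18.2 FPKM at 6 hr in control microglia and to 23.6 to 45.2 and 3.33 to 6.05 FPKM in WM repopulating cells (5 of 5 listed, none at 0 in every library of a group). B-cell markers moved the same way, with sums of 46.6 to 56.7 and 4.999 to 13.3 FPKM in control microglia and 9.66 to 19.5 and 2.60 to 9.46 FPKM in WM repopulating cells (3 of 4 listed), and the part of either cell type was not tested. *Ptms*, which lies 1976 bases from *Lag3* on the same strand, fell as well, from 114 to 47.3 FPKM in control microglia (-1.25, adjusted p = 5.51e-06) and from 120 to 56.5 FPKM in WM repopulating cells (-1.10, adjusted p = 2.24e-05).

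Other inhibitory receptors moved in both directions. Of 12 tested, 3 rose and 5 fell at 6 hr in control microglia, and 3 rose and 6 fell in WM repopulating cells, where 42.5% and 38.8% of all genes passed. *Cd300lf*, an inhibitory receptor of myeloid cells, went from 4.19 to 254 FPKM in control microglia (log2 fold change 5.76, adjusted p = 1.69e-09) and from 11.3 to 419 FPKM in WM repopulating cells (5.11, adjusted p = 8.28e-09). *Vsir* (VISTA), which restrains T cells, fell from 437 to 118 FPKM in control microglia (-2.02, adjusted p = 2.40e-06). Between the origins at 0 hr, *Pilra*, an inhibitory receptor of myeloid cells, was higher in WM repopulating cells, at 27.7 against 12.3 FPKM (1.11, adjusted p = 0.0159), where 1.21% of all genes passed the threshold. *Cd5*, a receptor of T cells whose markers were higher there as well, was at 1.85 against 0.197 FPKM, and no test is given since it passed the filter through WM repopulating cells at 0 hr. At 24 hr, where 3.97% of all genes passed, 2 were higher, *Cd300lf* (213 against 51.7 FPKM, 1.67, adjusted p = 0.0419) and *Tigit*, a receptor of T and NK cells (2.80 against 0.603 FPKM, 1.28, adjusted p = 0.0127).

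In the GLOBAL experiment 0 of the 3 checkpoint genes tested passed the threshold in limma, and 1, *Havcr2*, had an unadjusted p under 0.05. *Havcr2* was at 93.9, 90.8 and 91.6 FPKM in repopulated libraries and at 64.2, 56.7, 79.2 and 60.8 FPKM in control, without overlap, as in 9.96% of all genes (log2 fold change 0.50, SE 0.14, adjusted p = 0.348). *Lag3* was at 386 to 425 FPKM in repopulated and 269 to 450 FPKM in control libraries (0.31, SE 0.18, adjusted p = 0.620). *Cd274* was at 4.61 to 5.78 and 2.55 to 4.91 FPKM (0.38, SE 0.22, adjusted p = 0.623). Of 16651 genes tested with limma, 0 passed the threshold and 1504 had an unadjusted p under 0.05, and 55 passed with the replicate number as a block. Neutrophil markers summed to 1661 to 18506 FPKM in the control libraries and 1207 to 3825 FPKM in the repopulated ones, and B-cell markers (4 of 4 listed) to 16.4 to 33.4 and 12.9 to 14.8 FPKM, and their part in these values was not tested.

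In SVZ tissue *Lag3* and *Havcr2* fell with PLX3397 and were still low at 5 day recovery. *Lag3* was at 5.39 to 8.19 FPKM in control tissue (median 6.37), at 0.329 to 0.555 FPKM (median 0.437) after 14 days of PLX3397 and at 0.371 to 0.929 FPKM (median 0.727) at 5 day recovery. Neither group reached the control range, with log2 fold changes of -2.38 and -2.19. *Lag3* and *Havcr2* passed the expression filter only through the control libraries, so their tests here are from limma with no filter, on all listed genes (for *Lag3* SE 0.12, adjusted p = 3.62e-10 and 1.62e-09). With the filter, 1.26% and 1.27% of all genes passed the threshold and 2.77% and 3.1% had groups that did not overlap. The mean was 6.70% ± 1.24 of control after PLX3397 and 9.94% ± 3.85 at 5 day recovery (SD, n = 5). *Ptms*, beside *Lag3*, was at 315, 312 and 292 FPKM on average in control, PLX3397 and recovery tissue. In whole tissue, fewer cells of a type and less RNA per cell cannot be told apart.

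*Havcr2* was at 0.792 to 1.78 FPKM in control tissue (median 1.04), was listed at 0 in 4 of 5 libraries after PLX3397 and was at 0 to 0.190 FPKM (median 0.0891) at recovery. Only 2 reads were recovered in all after PLX3397 and 13 at recovery, against 162 in control, and since a fragment may count as 2 reads no interval is given. With no filter the log2 fold changes were -1.05 (SE 0.097, adjusted p = 1.82e-06) and -0.95 (SE 0.097, adjusted p = 8.41e-06). *Havcr2* was below the filter without any of 3 single control libraries.

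**Figure D4:**
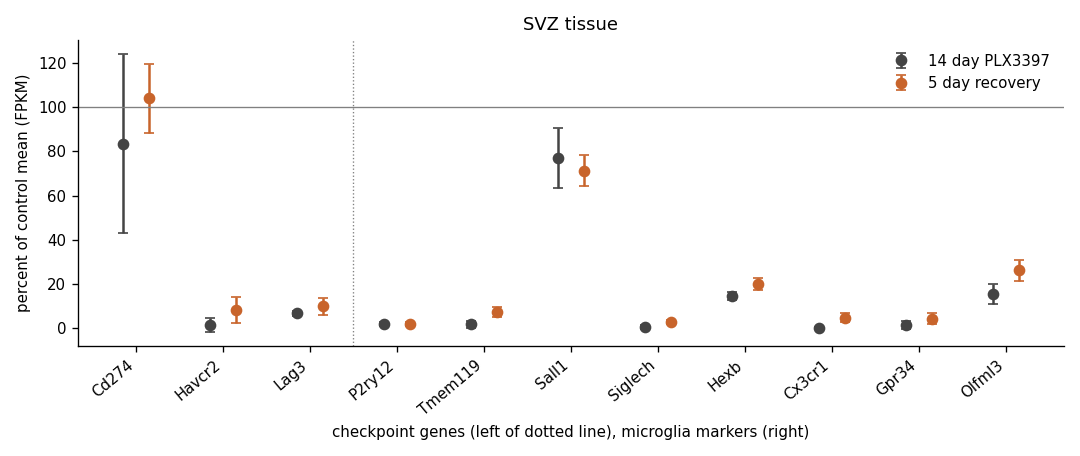
Level in SVZ tissue as percent of the control mean (y axis, FPKM; mean ± SD, n = 5) after 14 days of PLX3397 (grey) and at 5 day recovery (orange), for 3 checkpoint genes (left of the dotted line) and 8 microglia markers (right). *Lag3* and *Havcr2* lie under 10% of control in both groups, while *Cd274* lies at 83.5% and 104%.

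*Cd274*, in contrast, had values that overlapped with control. It was at 0.577 to 1.48 FPKM in control tissue, 0.427 to 1.38 FPKM after PLX3397 and 0.915 to 1.32 FPKM at recovery, with no group apart from the others. Its log2 fold changes against control were -0.13 (SE 0.15, adjusted p = 0.999) and 0.05 (SE 0.15, adjusted p = 0.897). As percent of control it was at 83.5% ± 40.5 and 104% ± 15.7, the highest among 3 checkpoint genes and 8 microglia markers in both groups. The microglia markers summed to 160 to 214 FPKM in control tissue, 15.9 to 19.4 FPKM after PLX3397 and 23.96 to 30.0 FPKM at recovery. *Cx3cr1*, the fractalkine receptor of microglia, was at 0.223% ± 0.320 of control after PLX3397 and 4.75% ± 2.19 at recovery. Of *Sall1*, a transcription factor of microglia, 77.0% ± 13.7 and 71.3% ± 7.23 were left. From PLX3397 to recovery the log2 fold changes were 0.19 (SE 0.12, adjusted p = 0.453) for *Lag3* and 0.10 (SE 0.097, adjusted p = 0.639) for *Havcr2* with no filter, and 0.18 (SE 0.15, adjusted p = 0.571) for *Cd274* with it, where 0.325% of all genes passed the threshold.

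Related genes were measured in the same tissue, where 1.26% of all genes passed the test after PLX3397. After PLX3397, 1 of 4 genes of the TIM-3 list passed the test in limma, and it was lower. Of 9 ligands and partners of LAG-3, 0 passed (5 at an unadjusted p under 0.05). The median log2 fold changes were -0.11 and -0.32. No count is given for partners of PD-1 and its ligands, other inhibitory receptors and other B7 family members. Genes that were lower there, *Ptpn6* among the partners of PD-1, passed the filter mainly or only through control libraries. *Cmtm6* went from 15.9 to 9.58 FPKM, a change of -0.68 in log2 units (adjusted p = 8.31e-05), and *Lgals9* from 7.65 to 4.23 FPKM (-0.73, adjusted p = 0.00230). *Vsir*, an inhibitory receptor, was at 6.62 FPKM on average in control tissue, 0.738 FPKM after PLX3397 and 1.21 FPKM at recovery. *Ptpn6* was at 4.52, 0.490 and 1.06 FPKM and *Cd86* at 1.39, 0.0231 and 0.0658 FPKM. *Cd86* passed the expression filter through control libraries alone, so no test is given for it.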

How the data were processed

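RNA was measured in 46 libraries, grouped by their titles, with each column matched to a sample by name (0 columns of per-sample values were not used). The authors aligned paired reads with STAR to mm10 and counted them per gene with featureCounts, with edgeR and limma for normalization, as the processing notes and methods state. The authors deposited FPKM values per gene in a table per experiment, normalized separately. The methods state Smart-seq2 and Nextera libraries, whereas the labels describe another library protocol. Tests were limited to genes with an FPKM of 1 or more in 3 or more libraries of their table (14151, 12684 and 16651 genes in the SVZ, LPS and GLOBAL tables).

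Groups were compared with limma 3.58.1 (R 4.3.3) on log2(FPKM + 1), a pseudocount of 1, with all groups of a table in a single fit, eBayes with a trend and Benjamini-Hochberg adjustment over all genes tested. Tests were two-sided, with a threshold of 0.05, and were tested on simulated data. The methods count n in mice, while the labels do not name the mouse of each sample, so p-values measure the spread between these samples. Read numbers are whole multiples of the smallest step of the FPKM values, recovered for 99.9%, 99.9% and 100.0% of genes, within 0.02, 0.002 and 0.002 of a whole read. Depth limits the precision of genes with few reads.

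The members and the lists of related genes and cell type markers were chosen with earlier results of these data known. Named are the 5 genes, at most 4 genes of each list that passed the test with the largest change, and the 5 genes with the highest Pearson's r to each over 24 libraries. A gene of the last kind and a list are not reported here. Alternatives were a pseudocount of 0.1, no filter, no variance trend, quantile normalization, the replicate number as a block, only the groups compared, and leaving out each library. Gene positions are from GENCODE M21 (GRCm38, the build of mm10), and promoters from RefSeq (GRCm38.p6), in which 4 of the 5 genes were matched.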

Additional observations from a re-analysis of the deposited data

Results flagged for a closer look

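In 4 of 38 groups of 4 or 5 libraries, 1 library stood apart by Dixon's ratio at the 95% level. Chance gives this in about 1 of 20 groups where values are normally distributed. *Cd274* in replicate 2 of control microglia at 6 hr was at 112.2 FPKM, where the other 4 libraries were at 15.6 to 31.5 FPKM. *Lag3* in replicate 4 of WM repopulating cells at 24 hr was at 273.5 FPKM, where the other 3 were at 238.7 to 241.4 FPKM. *Havcr2* in replicate 1 of SVZ tissue after 14 days of PLX3397 was at 0.0817 FPKM and *Pdcd1lg2* in replicate 2 of WM repopulating cells at 0 hr at 0.371 FPKM, where all other libraries of those groups were at 0. In such a group any value above 0 gives a ratio of 1, so the number of flags is not set against chance. None of the 6 tested differences between the origins in the response to LPS had an adjusted p under 0.05 in limma.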

How the results depend on the processing

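Of 1546 repeats of 57 member and comparison pairs under the alternatives, 1477 kept their direction and side of the threshold (or, for *Pdcd1* between origins, moved by less than the spread between replicates), 31 fell short of it, 18 passed it and 20 changed sign. The 18 include *Pdcd1* in WM repopulating cells at 6 hr against 0 hr with only the groups compared. That change is a description, so nothing is read from it. Checkpoint genes past the threshold numbered 2 in place of 1 at 6 hr against 0 hr in control microglia with quantile normalization, and 2 in place of 1 at 24 hr against 0 hr in WM repopulating cells with only the groups compared. At 24 hr against 6 hr there was 1 in place of 2 in control microglia with no filter, no trend or the replicate block, and 1 in place of 0 in WM repopulating cells with quantile normalization, the replicate block or only the groups compared. Against control, WM repopulating cells had 1 in place of 0 at 0 hr with only the groups compared, and at 24 hr 1 in place of 2 with no filter or no trend and 0 with only the groups compared. The replicate block changed no other call of a checkpoint gene. Without single libraries, the numbers ran from 1 to 2 for control microglia at 6 and 24 hr against 0 hr and at 24 against 6 hr, and for WM repopulating cells at 24 hr against 0 hr. They ran from 0 to 1 for WM repopulating cells at 24 against 6 hr and against control at 0 hr, and from 0 to 2 against control at 24 hr. No range is given for the SVZ comparisons with control, since *Havcr2* left the tested set without some single control libraries. Signs changed for *Havcr2* at recovery against PLX3397 (-0.0063 with quantile normalization) and for *Cd274* in the 24 hr response between origins (-0.10 with the replicate block). Without single libraries, log2 fold changes ran from -0.040 to 0.12 for *Cd274* at recovery against control, from -0.19 to 0.57 for *Pdcd1* at 24 hr against 0 hr in control microglia, from -0.19 to 0.25 for *Havcr2* at 24 against 6 hr in WM repopulating cells and from -0.29 to 0.40 for *Cd274* between origins at 6 hr. For differences between the responses they ran from -0.14 to 0.057 for *Havcr2* at 6 hr, and at 24 hr from -0.19 to 0.22 for *Lag3* and from -0.16 to 0.36 for *Cd274*. The causes were not tested. Over all genes, calls at recovery against PLX3397 went from 46 to 23 with only the groups compared, and those of WM repopulating cells against control from 41 to 16 at 6 hr and from 503 to 263 at 24 hr. Without single libraries these counts ran from 143 to 330 at recovery against control (180 with all), from 23 to 86 at recovery against PLX3397, and for WM repopulating cells against control from 64 to 254 at 0 hr (154 with all), 23 to 75 at 6 hr and 291 to 681 at 24 hr, so the shares of all genes given beside the results move as much. Same-numbered samples share only a number: the correlation of their deviations was over 0.1 in 5 of 15 pairs in the SVZ table, 7 of 55 in the LPS table and 2 of 3 in the GLOBAL table, and 4 of 15, 9 of 24 and 4 of 7 samples correlated best with their own number. The replicate block moved calls over all genes from 0 to 55 in the GLOBAL table. At these depths *Pdcd1lg2*, with 16 reads at most, was tested only with no filter.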
